A study of Bos taurus with 12 samples.

Results

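The comparison described here sets endothelial cells under a negative spatial gradient of wall shear stress, the frictional force of flow on the vessel wall, against cells under a uniform baseline stress. Its members are the 6 arrays whose titles read Negative WSSG (3 arrays) or Baseline WSS (3 arrays), of 12 arrays in all. The change of a probe set, a group of oligonucleotides that reads a transcript, is its mean log2 signal in the negative gradient arrays minus its mean in the baseline arrays. The cells were bovine aortic endothelial cells at passage 15, grown on glass coverslips and left confluent for 5 days in DMEM with 10% fetal bovine serum and 1% penicillin and streptomycin. For 24 h before flow they were held in DMEM with 5% serum, 1% antibiotics and 8% Dextran 70, a polymer that thickens the medium. Flow then ran for 24 h in a loop, and all 4 groups of the series shared this culture and medium. Baseline cells were under a uniform 3.5 Pa, and a further uniform group was under 28.4 Pa, called high stress below. The local stress under the negative and the positive gradient is not given in the sources used here.

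Endothelial cells sense shear stress through junctional complexes, integrins, ion channels and G protein-coupled receptors. Sustained high unidirectional flow is known to raise the transcription factors KLF2 and KLF4, which drive nitric oxide synthase and anticoagulant genes and restrain inflammatory ones. A spatial gradient adds a change of force along the length of the cell layer, as at branch points and bends of arteries.

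The cell label was set against 16 measured endothelial markers, which ranged from bright to dim. PECAM1, a junctional adhesion molecule, had a mean of 11.98 in all arrays (percentile 96.3 among named genes), and the endothelial cadherin CDH5 one of 11.11. FLT1, a receptor for vascular growth factor, was the dimmest at 6.90, percentile 14.8. CD14, the only measured leukocyte marker, lay at percentile 2.09. Of the measured fibroblast markers the collagen gene COL1A2 was as bright as PECAM1, at 11.91 and percentile 96.1, while COL3A1 lay at percentile 57.5 and THY1 at 11.6. The smooth muscle markers TAGLN and SMTN lay at percentiles 58.4 and 4.2. A bulk array cannot tell fewer cells of a type from less RNA per cell. The titles number the arrays of each group 1 to 3, but nothing says that they were separate cultures, so p-values measure only the spread between these samples.

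The negative gradient and baseline arrays also differed in the array's control measurements. Control probe sets at the 3′ and the 5′ end of a housekeeping transcript are commonly read as a sign of RNA integrity and labelling length. The 3′ minus 5′ difference for GAPDH was 0.04, 0.13 and 0.17 in negative gradient arrays 1 to 3 and 0.69, 0.59 and 0.60 in baseline arrays 1 to 3. The groups did not overlap, with means of 0.11 ± 0.066 and 0.63 ± 0.052 (SD, n = 3 each). The same held for EF1A, at -1.98 ± 0.17 under the gradient and -1.23 ± 0.19 at baseline, and for cyclophilin, at 0.92 ± 0.15 and 1.47 ± 0.039. For eIF4E the means were 2.68 ± 0.33 and 3.21 ± 0.16. Each of these 4 differences had p = 0.1 in a two-sided exact permutation test, the smallest value that 3 against 3 arrays allow, and the actin and GST controls gave p = 0.3 and p = 0.7 by the same exact permutation test. High stress array 3 lay with the gradient arrays in the GAPDH (0.09), EF1A (-2.03) and cyclophilin (0.94) controls. High stress arrays 1 and 2 were at 0.64 and 0.70 for GAPDH. For eIF4E high stress array 3 read 3.24, within both the baseline and the positive gradient range (2.39 to 3.45). It was above the negative gradient arrays, which reached at most 2.93. Over all probe sets its nearest array was positive gradient array 3. The sample records of the gradient and the uniform-flow arrays also carry separate runs of numbers, so flow pattern and set of records cannot be told apart in this comparison. The part of these differences in the gene results was not tested beyond the values given beside them.

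**Figure D1:**
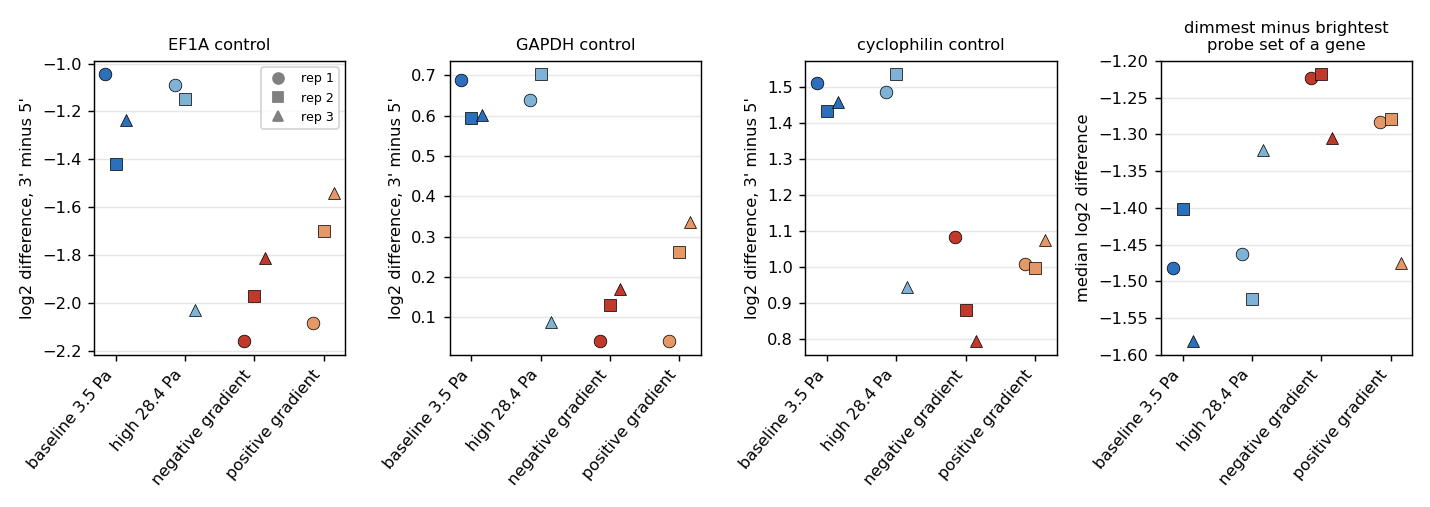
Control measurements by array. The first 3 panels show the 3′ minus 5′ difference of control probe sets and the last the median difference, over 637 genes, between the dimmest and the brightest probe set of a gene, all on the log2 scale, with a symbol per array. High stress array 3 lies among the gradient arrays in the first 3 panels.

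Of 24016 probe sets tested, 401 passed an adjusted p of 0.05 (limma, Benjamini-Hochberg), which is 1.67% of them. Of these 289 (1.2%) rose under the negative gradient and 112 (0.466%) fell. The changes of those that rose lay between 0.52 and 2.44 on the log2 scale, with a median of 0.99, and those that fell lay between -1.68 and -0.47, with a median of -0.86. At least a 2-fold change was reached by 140 that rose and 28 that fell. Over all tested probe sets the median change was -0.017. The smallest adjusted p was 0.0284, so no call lay far from the threshold, and 5474 probe sets had an unadjusted p under 0.05. All 289 and all 112 moved in their direction in 3 of 3 same-numbered pairs, with no overlap between the groups. Such separation was found in 14.6% (above) and 14.9% (below) of all probe sets.

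The count of calls depended on single arrays and on the pairing of the arrays. A block for the replicate number raised the count to 1590 (6.62%), of which 917 (3.82%) rose and 673 (2.8%) fell, and all 401 kept their call. Leaving out negative gradient array 1, 2 or 3, or baseline array 1 or 3, left 0 calls by limma, with 4724, 3789, 5384, 4398 and 4321 probe sets at an unadjusted p under 0.05. Without baseline array 2 there were 350 calls. Without positive gradient array 1, 2 or 3, which enter only through the shared estimate of spread, there were 109, 115 and 171, and without high stress array 3 there were 2073.

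Named genes were covered by 4726 probe sets for 3977 genes, each gene being read by its brightest probe set. On that basis 145 genes were called (3.65%), 125 higher (3.14%) and 20 lower (0.503%), against a median change of -0.069 over all named genes. A symbol was carried by 194 of the 289 probe sets called higher and 26 of the 112 called lower, beside 4726 of all 24016 tested. The genes described below were called unless the text says otherwise.

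The genes with the largest rises on that basis included genes of protein folding, lysosomes, signalling and RNA processing. Mean levels of the 12 with the largest rises ran from percentile 2.82 (CLN3) and 2.84 (CPNE2) to 88 (GNAS) among named genes. PPP5C, a serine/threonine phosphatase that binds the chaperone HSP90, read 8.11, 7.48 and 7.36 in negative gradient arrays 1 to 3 and 5.68, 5.71 and 5.45 in baseline arrays 1 to 3. CALR, the calcium-binding chaperone of the endoplasmic reticulum, read 10.81, 11.42 and 10.97 against 8.77, 9.91 and 8.58. CLN3, a lysosomal membrane protein, read 6.61, 6.23 and 6.60 against 4.52, 4.79 and 4.36. Each gradient array exceeded each baseline array for these 3 genes, although baseline array 2 stood above the other baseline arrays for CALR. The rises were 2.04 ± 0.38 (SE, adjusted p = 0.0321, limma) for PPP5C, 1.98 ± 0.38 (adjusted p = 0.0345) for CALR and 1.92 ± 0.24 (adjusted p = 0.0284) for CLN3.

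GNAS, the alpha subunit of the stimulatory G protein that activates adenylyl cyclase, read 11.76, 11.53 and 11.50 under the gradient and 9.76, 9.87 and 9.62 at baseline. Both groups were tight, and the rise was 1.85 ± 0.36 (adjusted p = 0.036, limma). A dimmer probe set of GNAS did not follow it, with a change of -0.44 (adjusted p = 0.344). HM13, the signal peptide peptidase, read 8.95, 8.55 and 8.21 against 6.84, 7.11 and 6.50, a rise of 1.75 ± 0.30 (adjusted p = 0.0321). Its second probe set also rose, by 0.93 (adjusted p = 0.0466), and the dimmest of its 3 changed by 0.54 (adjusted p = 0.128).

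CLK3, a kinase of splicing factors, read 8.35, 7.64 and 7.45 against 6.11, 6.45 and 5.70, a rise of 1.73 ± 0.36. PTBP1, which binds pyrimidine-rich RNA and represses exons, read 7.77, 7.74 and 7.67 against 6.31, 6.43 and 5.53, and rose by 1.64 ± 0.27. The 5 other genes in the set of 12 with the largest rises lay between 1.48 and 1.72. They were DNASE1L1, a relative of DNase I (1.72), LYPLA2, a thioesterase that removes lipid anchors (1.62), ADRM1, a ubiquitin receptor of the proteasome (1.56), and POFUT2, which fucosylates thrombospondin repeats (1.49), followed by CPNE2, a calcium-dependent membrane-binding copine (1.48).

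The genes with the largest falls included signalling scaffolds and chromatin regulators. Several were dim, with mean levels at percentile 0.981 (RUFY3), 1.58 (TAOK3), 1.91 (HNRNPLL) and 3.09 (APC) among named genes. The brightest of the 12 with the largest falls, EFR3A, lay at percentile 62.6. GNB4, a beta subunit of heterotrimeric G proteins, read 6.30, 6.23 and 6.85 under the gradient and 8.09, 7.84 and 7.76 at baseline. APC, the scaffold that marks beta-catenin for destruction, read 4.83, 4.82 and 4.94 against 6.05, 6.10 and 6.07. TAOK3, a kinase of stress signalling, read 4.32, 4.75 and 4.74 against 5.83, 6.09 and 6.05. The groups stood apart in all 3, most tightly for APC. GNB4 fell by 1.44 on the log2 scale (SE 0.25, adjusted p = 0.0321, limma), TAOK3 by 1.39 (SE 0.24, adjusted p = 0.0321) and APC by 1.21 (SE 0.25, adjusted p = 0.0389).

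BRWD1, a bromodomain protein that binds chromatin, read 5.37, 5.54 and 5.45 against 6.93, 6.80 and 6.79, and fell by 1.39. The chromatin remodeller CHD2 fell by 0.97 and the homeobox factor CUX1 by 0.87. Others that fell were the zinc finger gene ZNF292 (-1.26), RUFY3, an adaptor of vesicle transport (-1.15), ERMARD (-1.07), EFR3A, which anchors a phosphatidylinositol kinase at the plasma membrane (-0.93), and HNRNPLL, an RNA-binding splicing regulator (-0.89). CUL1, the scaffold of SCF ubiquitin ligases, read 8.56, 8.54 and 8.51 against 9.38, 9.54 and 9.10. It fell by 0.80 (SE 0.17, adjusted p = 0.0412), but its second probe set changed by 0.33 in the other direction (adjusted p = 0.23).

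**Figure D2:**
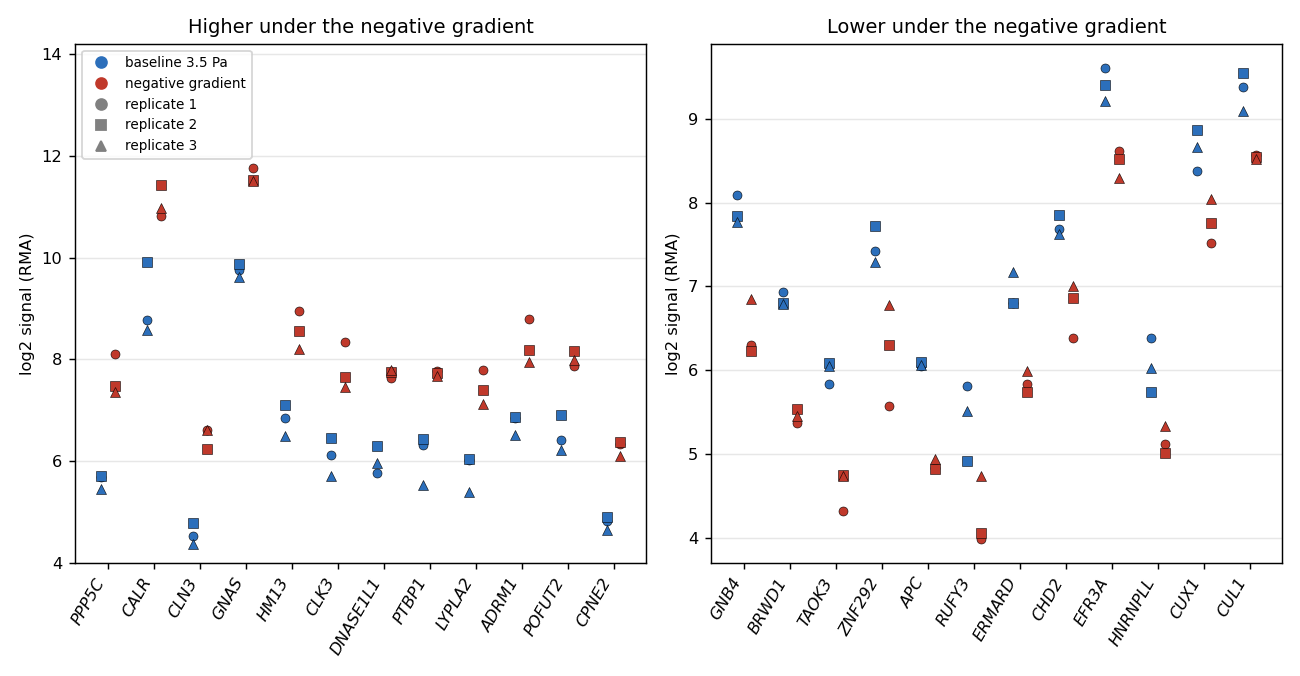
Log2 signal in each negative gradient and baseline array for the 12 called genes with the largest rise (left) and the 12 with the largest fall (right) by the brightest probe set. Symbols mark the replicate number, and for each gene the red and blue symbols do not overlap.

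Gene groups were followed in 34 lists, of which 801 genes were measured. Of these 22 (2.75%) rose and 2 (0.25%) fell, beside 3.14% and 0.503% of all named genes, and 21 lists held no call. With the replicate block 8.32% of all named genes were called higher and 3.55% lower, and the counts of list members given with the block are to be set beside these shares. Genes of flow response and vascular tone come first. Of the 15 measured genes of the KLF2 and laminar-flow list, 0 were called and 12 had a positive change, with a median of 0.43, and with the block 3 were called higher. NOS3, the endothelial nitric oxide synthase, read 11.12, 10.03 and 10.31 under the gradient and 9.50, 8.32 and 9.15 at baseline. The groups did not overlap and the number 2 array was the lowest of each. The change of 1.50 ± 0.37 missed the threshold (adjusted p = 0.0588, limma) and passed it with the replicate block (adjusted p = 0.0252). Leaving out each array in turn gave NOS3 adjusted p-values from 0.0206 to 0.164.

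The other 2 genes called in this list with the block were TIMP3, an inhibitor of matrix proteases (0.98, adjusted p = 0.199 without and 0.0252 with the block, limma), and the water channel AQP1 (0.71, adjusted p = 0.515 and 0.0447). KLF4 changed by 0.49 (adjusted p = 0.435) and the groups overlapped. PROCR, the endothelial protein C receptor, read 10.99, 8.79 and 9.34 against 9.31, 8.48 and 9.37. Gradient array 1 alone stood above the baseline arrays, and the change of 0.65 ± 0.48 was not called. THBD, thrombomodulin, changed by -0.28, and PTGIS, which makes prostacyclin, by 0.49 (adjusted p = 0.0812). KLF2 itself is not among the named probe sets used here.

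In the vasoactive list 1 of 17 measured genes was called. P2RY2, a nucleotide receptor through which endothelium answers ATP and UTP, read 7.02, 7.21 and 7.02 against 5.89, 6.10 and 6.11. The groups were well separated and P2RY2 rose by 1.05 ± 0.22 (adjusted p = 0.0389, limma). Endothelin-1, EDN1, changed by -0.03 and overlapped between groups, and adrenomedullin, ADM, changed by -0.55 (adjusted p = 0.309). In the list of mechanosensing genes and channels 2 of 38 rose, GNAS and P2RY2, and 1 fell, GNB4. With the block 8 of these were higher and 1 lower (8.32% and 3.55% of named genes), the additions including the small GTPases RAC1 (0.70) and RHOC (0.82) and the calcium channel subunit ORAI1 (1.10).

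Receptors and surface proteins of endothelium were partly higher. TIE1, an orphan receptor kinase that modulates angiopoietin signalling, read 9.93, 9.91 and 9.62 against 8.76, 8.58 and 8.58. CD34, a sialomucin of endothelium and blood progenitors, read 11.42, 11.35 and 11.40 against 10.76, 10.59 and 10.66. Neither gene overlapped between groups, and they rose by 1.18 ± 0.25 and 0.72 ± 0.15 (adjusted p = 0.0393 each, limma). They were the 2 called of 16 endothelial markers, whose median change was 0.25. Of the 16, 12 had a positive change, beside 42.3% of all named genes, and 4 a negative one, THBD the lowest at -0.28. The mean log2 level of the whole marker list was between 9.80 and 10.08 in the gradient arrays and between 9.40 and 9.67 in the baseline arrays. ACVR1, a type I receptor for bone morphogenetic proteins, rose by 0.77 ± 0.17 and was the 1 called of 20 in the TGF-beta and BMP list. The ligand BMP4 changed by 0.65 (adjusted p = 0.166).

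Among 25 junction and adhesion genes 2 were called higher, and 15 had a positive and 10 a negative change. NECTIN2, a nectin of adherens junctions, read 7.43, 7.57 and 7.09 against 5.95, 6.56 and 5.75. ITGA5, the alpha subunit of the fibronectin receptor, read 9.27, 9.19 and 9.12 against 8.37, 8.47 and 8.60. The gradient arrays were above the baseline arrays in both genes. They rose by 1.28 ± 0.29 (adjusted p = 0.0477, limma) and 0.71 ± 0.14 (adjusted p = 0.0388). With the block 8 of the 25 were higher (8.32% of named genes), among them plakoglobin, JUP (0.88), and the junctional molecule F11R (0.60), and ITGA2 was lower (-0.81).

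The contractile and SRF list had a median change of 0.39 over 27 genes, of which 20 were positive and 3 were called. TUBB, a beta tubulin, read 11.92, 11.35 and 10.86 against 10.40, 10.28 and 9.94. TAGLN2, an actin-binding transgelin, read 12.84, 12.61 and 12.50 against 11.90, 11.63 and 11.46. CAPZB, a subunit of the actin capping protein, read 11.13, 10.76 and 10.88 against 10.10, 10.06 and 9.93. All 3 were separated between groups, and they rose by 1.17, 0.98 and 0.89. With the block 9 were higher and 1 lower (8.32% and 3.55% of named genes), which added the actin regulators CFL1 (0.54), ZYX (0.54), FLNA (0.59), VCL (0.49) and ACTN4 (0.56), besides TAGLN. TAGLN, a marker of contractile cells, read 10.36, 9.25 and 10.24 against 9.23, 8.63 and 9.27. Its groups overlapped by gradient array 2, and its change of 0.91 ± 0.36 had an adjusted p of 0.16 without and 0.0435 with the block (limma), and of 0.0858 to 0.331 when arrays were left out in turn. TAGLN and SMTN were the 2 measured smooth muscle markers, and their mean level was between 7.41 and 8.56 in the gradient arrays and between 6.89 and 7.41 in the baseline arrays.

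Matrix and protease genes gave few calls. SPARC, a collagen-binding matricellular protein, read 12.97, 12.76 and 13.06 against 12.31, 11.90 and 12.09. PLOD3, which hydroxylates and glycosylates collagen lysines, read 7.32, 7.42 and 7.31 against 6.27, 6.52 and 6.26. They were higher in each gradient array than in any baseline array, by 0.83 ± 0.18 and 1.00 ± 0.17, and were the 2 called of 41 matrix genes, whose median was -0.10. CTSA, a lysosomal carboxypeptidase, read 9.50, 9.37 and 9.43 against 7.96, 8.42 and 7.80, a rise of 1.37 ± 0.24 (adjusted p = 0.0321, limma). The aspartic protease CTSD rose by 0.76 ± 0.17. These were the 2 called of 26 proteases and inhibitors, and 6 were called higher with the block, including the inhibitor TIMP1 (1.03) and the gelatinase MMP2 (0.48). THY1, a surface protein of fibroblasts, was at 6.15 ± 0.26 under the gradient and 7.39 ± 0.31 at baseline, and its change of -1.24 missed the threshold (adjusted p = 0.0509, and 0.0363 with the block, limma). Of the other measured fibroblast markers COL1A2 changed by 0.02 and COL3A1 by -0.10. The mean level of these 3 markers was 8.56 to 9.49 in the gradient arrays and 9.18 to 9.76 in the baseline arrays.

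Of the 38 measured genes of the unfolded protein and ATF4 list 4 rose and 0 fell, and the list's median was 0.01. They were CALR, HM13, SLC3A2 and RCN3. SLC3A2, the heavy chain of amino acid exchangers, read 9.39, 9.25 and 9.24 against 8.01, 8.24 and 7.95, and rose by 1.23 ± 0.21. RCN3, a calcium-binding protein of the secretory pathway, read 8.77, 8.84 and 8.85 against 7.67, 8.02 and 7.54. The gradient values of RCN3 were nearly level with each other and above all baseline values, and it rose by 1.08 ± 0.20, with its second probe set at 1.33. Heat shock and chaperone genes gave 0 calls of 29, with a median of 0.06, and translation factors 0 of 41.

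Energy metabolism, proteolysis and proliferation gave scattered calls or none. UQCRC1, a core subunit of respiratory complex III, rose by 1.18 ± 0.24, and NDUFV1, the flavoprotein of complex I, by 1.06 ± 0.23. They were 2 of 70 oxidative phosphorylation genes, and the list median was 0.08. ACADVL, which starts the oxidation of very long fatty acids, rose by 0.72, the 1 call of 25 fatty acid genes. PSMC4, an ATPase of the proteasome, rose by 1.12 ± 0.22 while CUL1 fell, of 38 proteasome and ubiquitin genes. Ribosomal proteins gave 0 calls of 34 with a median of 0.00.

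No gene of the cell cycle lists passed the test without the block. Of 44 measured G2/M genes 40 had a positive change, beside 42.3% of all named genes, with a median of 0.28, and 0 were called. The list's median was 0.63 and 0.43 in pairs 1 and 2 and -0.11 in pair 3, so pair 3 went the other way. With the block 3 of the 44 were called higher, a share below the 8.32% of named genes. They were UBE2S (1.25, adjusted p = 0.0289, limma), CDC20 (0.94, adjusted p = 0.0356) and UBE2C (0.74, adjusted p = 0.0475), all of which act with the anaphase-promoting complex. CCND1, cyclin D1, read 10.08, 8.45 and 8.99 under the gradient and 7.78, 7.08 and 7.81 at baseline. The groups were apart but gradient array 1 was far above the other two, and the change of 1.62 ± 0.50 had an adjusted p of 0.0938 without and 0.0383 with the block (limma), and of 0.0221 to 0.237 when arrays were left out in turn. Of the 17 growth arrest and p53 genes 5 were positive and 0 were called, and GAS2 changed by -0.85 (adjusted p = 0.173).

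Inflammatory and interferon-response genes gave no call without the block, and with it 1 interferon-response gene, XAF1, was called lower. In the list of NF-kB and leukocyte adhesion genes 0 of 28 passed either way, with 12 positive and a median of -0.09. VCAM1, which binds leukocytes, read 5.43, 10.33 and 5.80 under the gradient and 6.25, 10.25 and 6.03 at baseline. The chemokine gene CCL2 read 5.67, 11.59 and 7.77 against 5.67, 11.59 and 8.22. In both genes the number 2 arrays were far above the others in either group, and the changes were -0.32 ± 1.71 and -0.15 ± 1.88. With the replicate block the SEs were 0.21 and 0.18. The pair differences were -0.81, 0.09 and -0.23 for VCAM1 and 0.00, 0.00 and -0.45 for CCL2. CXCL5 changed by 0.07 ± 0.93. Among interferon-response genes 0 of 17 passed, and XAF1 changed by -0.99 (adjusted p = 0.0537, and 0.0303 with the block, limma). CD14 read 4.47, 7.12 and 5.92 against 5.15, 7.99 and 6.09, again with the number 2 arrays highest, and its change of -0.57 was not called.

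**Figure D3:**
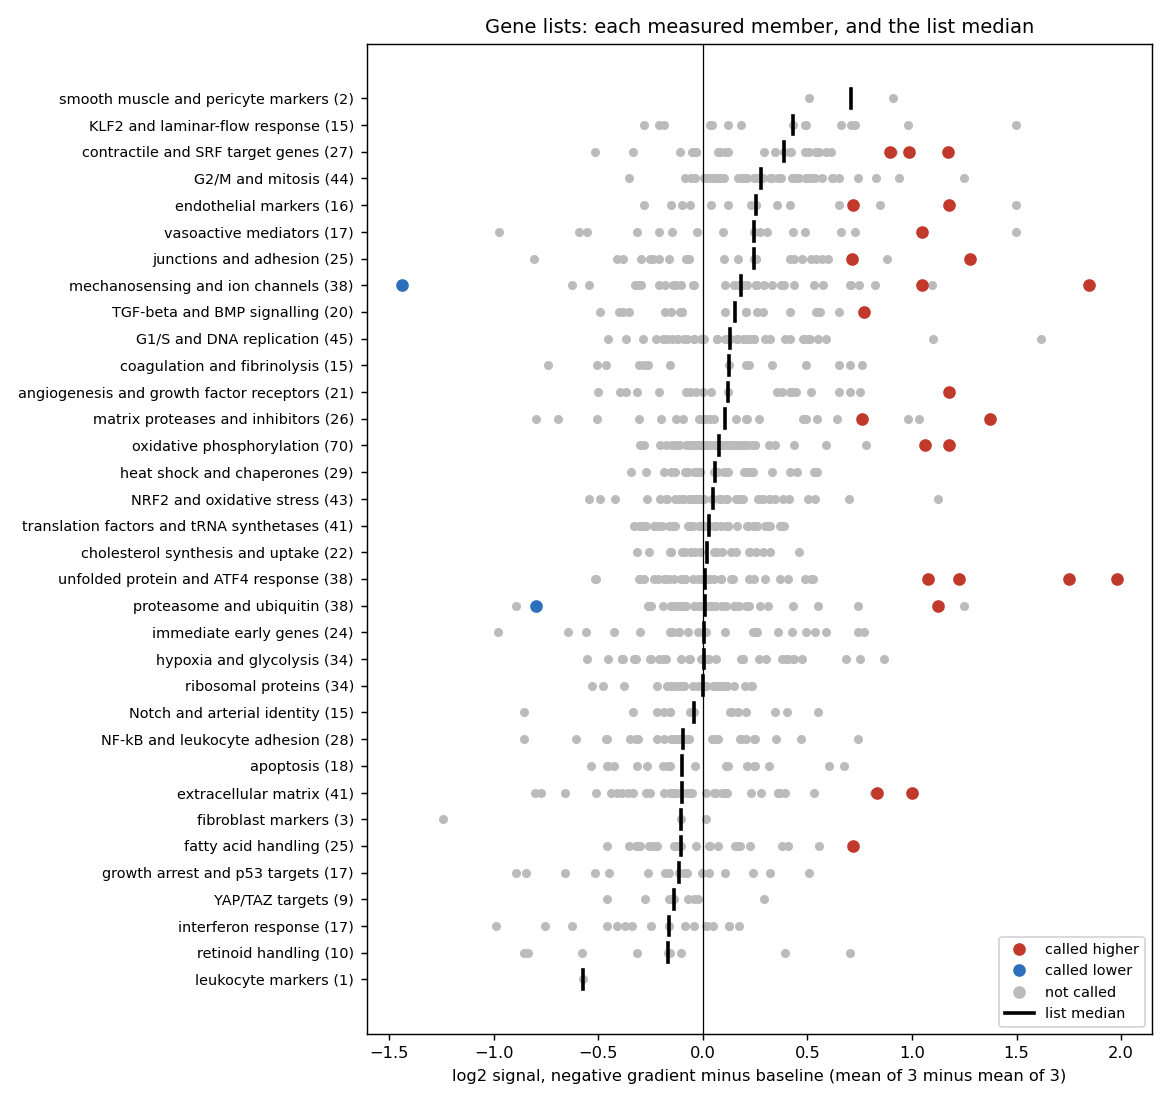
Change from baseline to the negative gradient (log2 signal, difference of means of 3 arrays) for each measured member of each gene list, with the number measured in parentheses and the list median as a black bar. Called genes are coloured, and the contractile list, with 3 called, has a median of 0.39.

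Many calls came from dim probe sets of genes whose brightest probe set did not pass. Of 637 genes read by several probe sets, 75 had at least 1 called higher, and in 55 of these the brightest was not called, with a median change of 0.24 in it. Over all 637 the median change was -0.09 by the brightest and 0.14 by the dimmest probe set, 20 (3.14%) and 63 (9.89%) were called higher, and 11 by both. At least 1 probe set was called lower in 8 of the 637 genes, and the brightest in 3, beside 0.503% of all named genes by the brightest. The median difference between the dimmest and the brightest probe set of a gene was -1.22, -1.22 and -1.30 in negative gradient arrays 1 to 3 and -1.48, -1.40 and -1.58 in baseline arrays 1 to 3, so the groups did not overlap (two-sided exact permutation p = 0.1, the smallest possible). Probe sets whose identifier gives a second or later subcluster of a transcript cluster were 18% of all tested, 46.7% of those called higher and 9.82% of those called lower. Among the 12 genes with the largest rises, CALR, CLN3, HM13, CLK3, ADRM1 and CPNE2 were read by such probe sets. All of these but HM13 had 1 named probe set, so no other could be set beside it.

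Examples of this contrast were chosen after their values were seen. RHOB, a small GTPase of endosomes, had a bright probe set (mean 12.80 over the 12 arrays) that changed by 0.33 (adjusted p = 0.13, limma) and a dimmer one (8.48) that rose by 1.90 (adjusted p = 0.0321). SQSTM1, an autophagy receptor, changed by -0.09 in its bright probe set (adjusted p = 0.872) and rose by 2.38 in its dim one. JUN, a subunit of AP-1, changed by 0.24 and -0.45 in its brighter probe sets and rose by 1.96 in the dimmest. PECAM1 changed by 0.26 and rose by 0.96, and CDH5 changed by 0.25 and rose by 1.05, again with the larger value in the dimmer probe set. HYAL2, a hyaluronidase, differed from these in that both probe sets rose, by 1.08 and 2.44.

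The levels of the called genes were followed in all 12 arrays. Relative to the mean of the baseline arrays, which helped to choose them, the 125 genes called higher had median levels of 1.17, 0.98 and 0.86 in negative gradient arrays 1 to 3 and of 0.89, 0.90 and 0.65 in positive gradient arrays 1 to 3. In high stress arrays 1 and 2 the median was 0.10 and 0.13, but in high stress array 3 it was 0.81. The 20 genes called lower gave -0.87, -0.91 and -0.72 under the negative gradient, -0.76, -0.78 and -0.70 under the positive gradient, -0.17 and -0.18 in high stress arrays 1 and 2, and -0.64 in high stress array 3. Against the mean of high stress arrays 1 and 2, all 125 higher genes were higher in high stress array 3 (median 0.67) and all 20 lower genes were lower there (median -0.46), beside 50% of all probe sets above and a median of 0.00. High stress array 3 lay with the gradient arrays in these genes and in the GAPDH, EF1A and cyclophilin controls, and its label is uniform flow. The eIF4E control did not separate it from the positive gradient or the baseline arrays. For PROCR high stress array 3 read 12.16, beside 12.18 and 11.18 in high stress arrays 1 and 2. Positive gradient arrays 1 to 3 read 11.68, 10.84 and 11.66. For FABP4, a fatty acid carrier, it read 6.62 beside 7.74 and 7.48, and the positive gradient arrays read 8.59, 7.48 and 7.57. For PROCR high stress array 3 was thus above each positive gradient array and within the range of high stress arrays 1 and 2. For FABP4 it was below all of these arrays. High stress arrays 1 and 2 themselves overlapped the positive gradient arrays in both genes, which limits what these values say of its group.

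**Figure D4:**
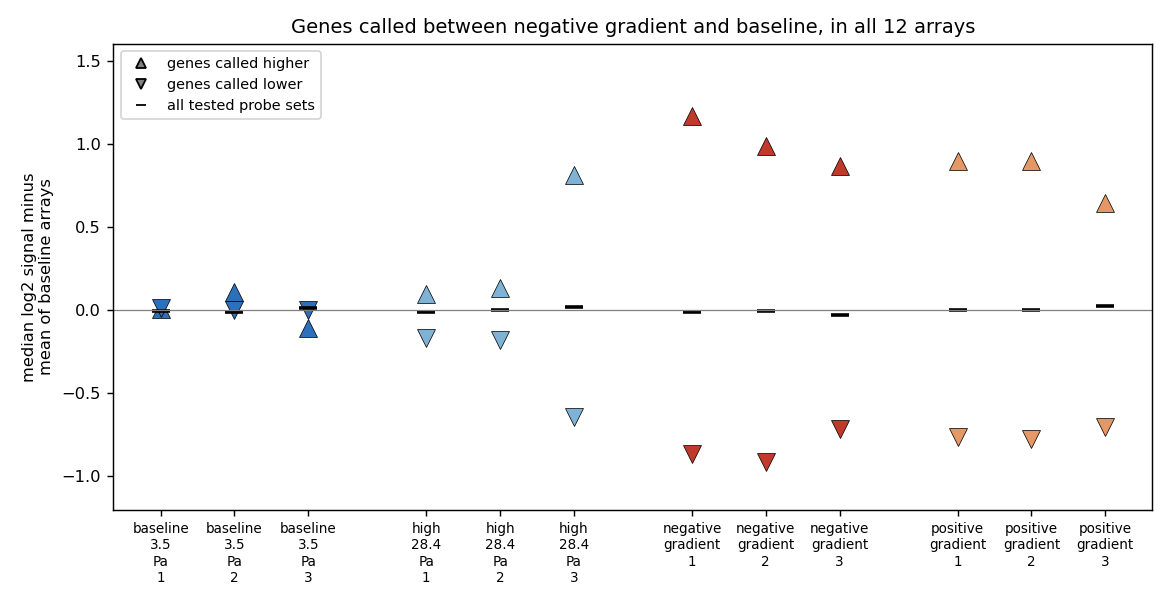
Median log2 signal minus the mean of the baseline arrays, for the 125 genes called higher, the 20 called lower and all tested probe sets, in each of the 12 arrays. High stress array 3 lies at 0.81 and -0.64, near the gradient arrays, while high stress arrays 1 and 2 lie near the baseline arrays.

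Whether the change from baseline differed between the negative and the positive gradient was tested by the difference between the gradients. It gave 0 calls (limma), with 1247 probe sets at an unadjusted p under 0.05. The replicate numbers pair the gradients too, with correlations of 0.62, 0.53 and 0.35 between the deviations of same-numbered arrays. With the block there were 6 calls (0.025%), and 560 when the block was fitted in these 2 groups alone. The comparisons of each condition with baseline use the same baseline arrays, which also chose the 125 and the 20 genes, so a common sign is partly fixed in advance and nothing is read from it. Their median changes over the 125 genes were 1.00 for the negative gradient, 0.83 for the positive gradient and 0.34 for high stress, and over the 20 genes -0.88, -0.77 and -0.32. All tested probe sets gave 1.67% calls for the negative gradient, 7.01% for the positive gradient and 0.408% for high stress.

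The difference between the negative gradient and high stress gave 23 calls (0.0958%), of which 15 were higher (0.0625%) and 8 lower (0.0333%) under the negative gradient, with 3672 at an unadjusted p under 0.05. This number was 1767 without high stress array 3, and between 0 and 21 without any other single array. It was 1030 with the block, although same-numbered arrays of these groups correlated at 0.33, 0.41 and -0.079, so number 3 did not pair. Of the 145 genes called against baseline, 2 differed from high stress as well, RCN3 and GPR108. RCN3 averaged 8.82 ± 0.042 (SD, n = 3) with the negative gradient, beside 7.74 ± 0.25 for baseline, 7.96 ± 0.19 for the positive gradient and 7.38 ± 0.42 for high stress, and exceeded high stress by 1.44 (adjusted p = 0.0282, limma). GPR108 rose by 0.70 against baseline (adjusted p = 0.0375) and exceeded high stress by 0.93 (adjusted p = 0.0375).

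Other genes differed between the negative gradient and high stress and were not called against baseline. FABP4 read 9.29, 9.12 and 9.36 under the negative gradient and 9.74, 9.90 and 9.51 at baseline, with a change of -0.46 ± 0.30 (adjusted p = 0.373, limma). Its groups did not overlap, yet it was 1.97 above high stress (adjusted p = 0.0375). The related FABP5 changed by -0.32 against baseline and was 1.46 above high stress (adjusted p = 0.0495). CD93, an endothelial C-type lectin-like receptor, changed by 0.24 and was 1.46 above high stress. SELENOP, a selenium carrier, changed by -0.06 and was 1.32 above it. The cholesterol ester hydrolase NCEH1 changed by -0.69 (adjusted p = 0.203) and was 1.91 below high stress.

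Genes reported whatever their values showed 0 calls of 20 measured, and 4 calls with the block (11.9% of named genes either way), namely NOS3, TAGLN, CCND1 and NR2F1. NR2F1, an orphan nuclear receptor of the COUP-TF family, read 5.84, 6.14 and 6.99 under the gradient and 6.86, 7.40 and 7.27 at baseline. Gradient array 3 overlapped the baseline arrays, and the change of -0.86 ± 0.28 had an adjusted p of 0.106 without and 0.0358 with the block (limma), and of 0.0556 to 0.284 when arrays were left out in turn. NR4A1, an immediate early nuclear receptor, read 7.73, 7.53 and 6.75 against 6.77, 6.23 and 6.80. Array 3 of the gradient fell within the baseline values and the change of 0.74 was not called (adjusted p = 0.107). TTR, the thyroxine and retinol-binding protein carrier, changed by -0.84 (adjusted p = 0.353), with 3 of 3 pairs negative.

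**Figure D5:**
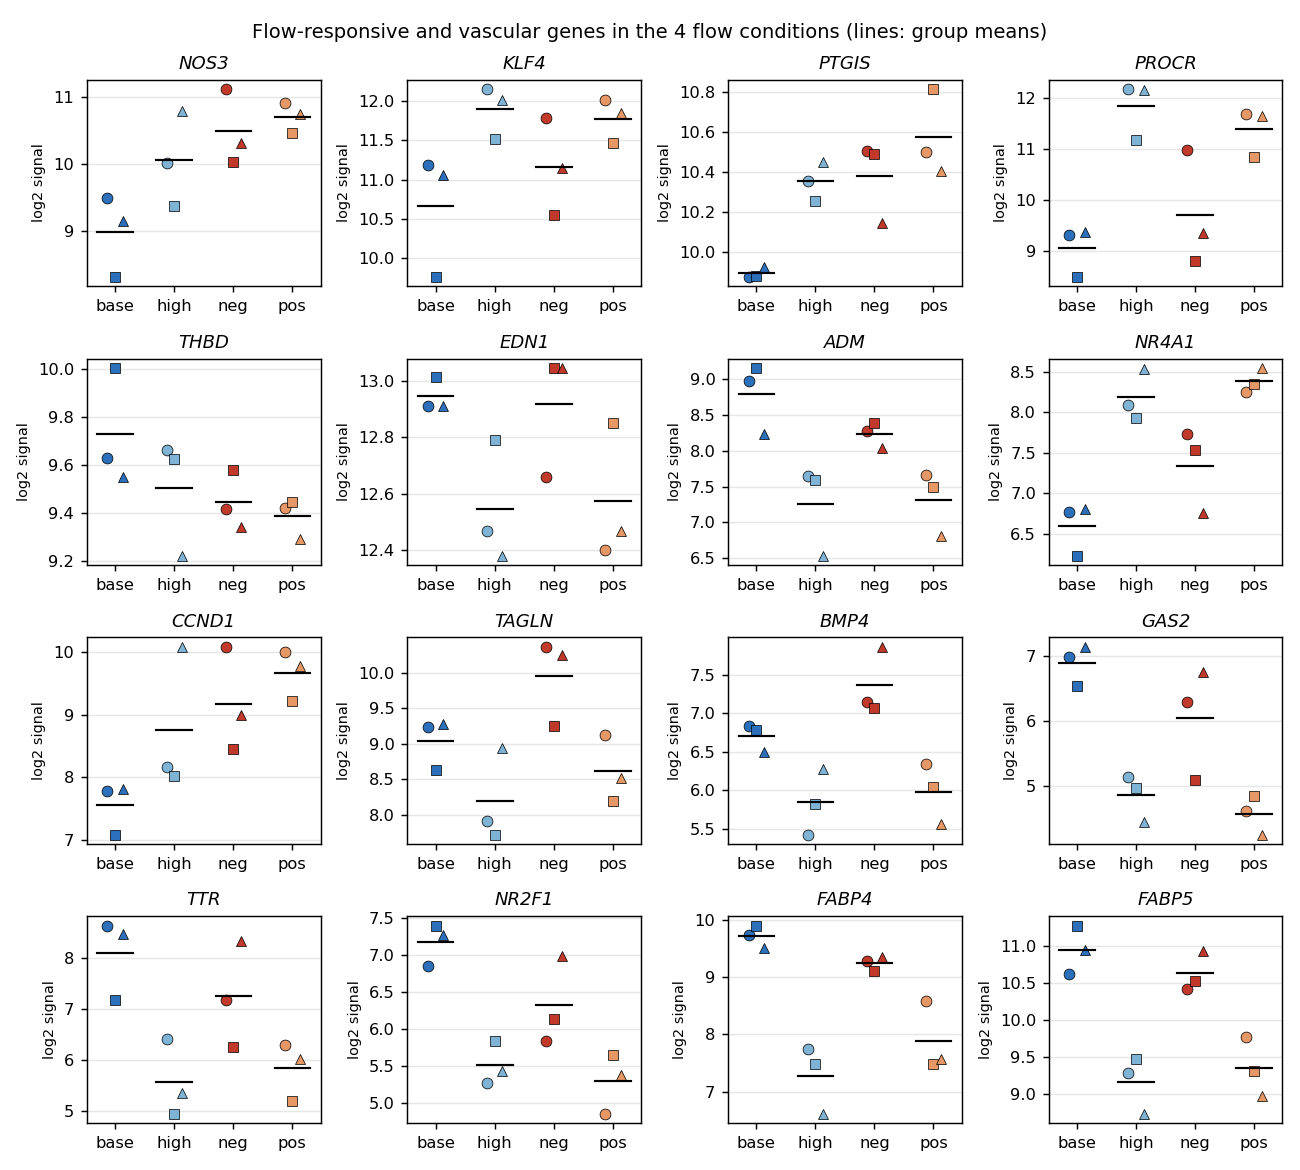
Log2 signal of 16 flow-responsive and vascular genes in the 3 arrays of each condition (symbols mark the replicate number as circle, square and triangle for 1, 2 and 3, and lines mark group means; base is baseline, neg and pos are the gradients). NOS3 is above baseline in all 3 negative gradient arrays, while FABP4 lies nearer to baseline than to high stress.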

How the data were processed

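The values are log2 signals that the authors deposited as a matrix computed with RMA, per the submitters' processing notes, which also name limma. RMA corrects background, equalizes the distributions of the arrays and summarizes each probe set. No version or further setting is given in those notes. Of the matrix's 24128 probe sets, 112 are array controls and were not tested. Array medians lay between 5.65 and 5.71. A second deposited table of log2 values repeats 7194 probe sets, with 0 cells that differ. Its annotation names 4726 of the tested probe sets with 1 symbol, 4715 of which matched the reference annotation (ARS-UCD2.0) by Entrez number. A further 27 listed several symbols, and 19290 tested probe sets have no name here.

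One model held all 12 arrays and the 4 group means (R 4.3.3 with limma 3.58.1, 8 residual and 4.95 prior degrees of freedom), with Benjamini-Hochberg adjustment over 24016 probe sets and calls at an adjusted p under 0.05. ± beside a change is limma's SE, and beside a mean it is the SD. The titles' numbers were taken to pair gradient and baseline arrays, since deviations from the group means correlated at 0.46, 0.61 and 0.26 in same-numbered pairs. For the negative gradient with high stress they were 0.33, 0.41 and -0.079. A list's level in an array is the mean log2 value of its measured genes.

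The naming rule took the 12 called genes with the largest change in each direction and up to 4 called members of each list (or the 2 with the smallest p). It also took a set of flow-related genes reported whatever their values, and up to 4 in each direction called with the block alone. Other genes in the text, such as TIMP3, RAC1, CD93 and EGR1, fall outside this rule and were picked with their values known. Members and lists were chosen with earlier results of these data known. Alternatives changed the block, the arrays, the filter on dim probe sets, centring, eBayes settings, array weights and the probe set per gene. The code was tested on simulated data. Promoter sequences were not analysed here.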

Additional observations from a re-analysis of the deposited data

How the results depend on the processing

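The 3 arrays of each group limit the precision, and brightness limits dim probe sets, since no filter on low signal was set beyond the alternative given here. The 401 calls between negative gradient and baseline (289 higher, 112 lower) became 1590 (917 and 673) with the replicate block, 2829 (1431 and 1398) with the block in the 2 groups alone, and 1425 (843 and 582) with array weights. Without the block the 2 groups alone gave 584 (414 and 170). With the block and without the arrays numbered 1 or 2 there were 0 calls (0 higher, 0 lower), without those numbered 3 there were 2394 (1189 and 1205), and without high stress array 3 there were 4470 (2140 and 2330). These last settings, which leave out a replicate number or high stress array 3 under the block, were chosen after seeing the data, as were the choices of probe set per gene. A requirement of at least 2-fold left 168 (140 and 28). Leaving out each array in turn gave 0 to 2073 calls, 0 to 1144 higher and 0 to 929 lower. The filter on dim probe sets (408), centring (348), a trend (402), robust eBayes (542) and the probe sets of the second table (428) stayed within 1.5 times.

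The difference between the gradients gave 0 calls when each array was left out in turn (0 to 0), 6 with the block, 560 with the block in the 2 groups alone and 49 with the block without high stress array 3. The 23 calls between negative gradient and high stress became 1030 with the block, 223 with the block in the 2 groups alone, 0 in the 2 groups alone, 64 with dim probe sets left out, 10 with centring, 41 with a trend, 1704 with array weights, 57 in the second table, 15 at 2-fold or more and 4173 with the block without high stress array 3. They ranged from 0 to 1767 when arrays were left out. The cause of these moves was not tested.

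Of the 43 called genes that the naming rule gave, 43 kept their call with the block, a trend, robust eBayes, array weights or without high stress array 3, and 0 kept it without any negative gradient array or baseline array 1 or 3. By the dimmest probe set GNAS was at -0.44, CUL1 at 0.33, RPL9 at 0.40 and CCL2 at 0.046, the reverse of the brightest. Other reversals were in genes not called: EDN1 (0.026 with array weights, 0.083 with the block without number 1, and -0.093 to 0.10 when arrays were left out), VCAM1 (0.25 with array weights, -1.89 to 1.05), CCL2 (0.64 with array weights, -1.77 to 1.40), CXCL5 (-0.18 with the block without number 3, -0.32 to 0.55), COL3A1 (0.083 with the block without number 2, -0.58 to 0.56) and CD14 (-1.22 to 0.21).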

Other observations

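Genes outside the groups described so far included 5 whose call, by the brightest probe set, appeared only with the replicate block. Their changes were among the largest of that kind. SFXN1, a mitochondrial serine transporter, read 5.97, 4.68 and 5.38 under the negative gradient and 4.04, 3.88 and 4.05 at baseline, and its change was 1.35 (adjusted p = 0.0553 without and 0.0252 with the block, limma). MCAT, an enzyme of mitochondrial fatty acid synthesis, changed by 1.26 (adjusted p = 0.0581 and 0.0321). PHLDB2, which links microtubules to the cell cortex, changed by -1.42 (adjusted p = 0.0618 and 0.0323), and TPR, a protein of the nuclear pore basket, by -1.41 (adjusted p = 0.0573 and 0.0289). The dimmest probe set of PHLDB2 was called without the block (-1.31, adjusted p = 0.0389, limma), while its second changed by -0.20 (adjusted p = 0.73). CLCA3 read 7.32, 5.39 and 5.43 against 8.94, 6.43 and 6.49. The number 1 arrays were the highest of both groups and the groups overlapped, while the pair differences of -1.63, -1.04 and -1.06 were alike (adjusted p = 0.371 and 0.0252).

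Some values of glycolysis and redox genes lay just short of the threshold. PKM, a pyruvate kinase, changed by 0.87 (adjusted p = 0.0642, and 0.0292 with the block, limma), PGAM1, a phosphoglycerate mutase, by 0.75 (0.0586 and 0.0406), and the haem oxygenase HMOX2 by 1.12 (0.0509 and 0.0314). In the hypoxia and glycolysis list 0 of 34 were called without the block and 3 with it, and in the NRF2 list 0 of 43 and 3, shares near the 8.32% of all named genes called higher with the block. Of 24 measured immediate early genes 0 were called without the block and 12 had a positive change, with a median of 0.01. With the block 2 were higher, IER2 (0.54) and NOCT (0.59), and 1 was lower. The lower one was the transcription factor EGR1, which changed by -0.98 (adjusted p = 0.202 without and 0.0442 with the block, limma).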
